A study of Danio rerio with 24 samples.

Results

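The transcripts described here are 80 probe sets whose level in the zebrafish larval jaw was higher with TCDD 12 h after exposure began. At 1, 2 and 4 h the absolute difference of the group means was under 0.2, which does not show that single arrays were alike. TCDD is 2,3,7,8-tetrachlorodibenzo-p-dioxin, a persistent dioxin. They were chosen by their measured values, out of 15617 probe sets on the array. For each time, the mean log2 intensity of 3 vehicle arrays was subtracted from that of 3 TCDD arrays. After the 115 array controls, 7 probe sets with the identifier stems of cyp1a and sox9b, and all probe sets with a mean log2 level under 4 were set aside, 8781 remained. Of these, 1968 had an absolute difference under 0.2 at 1, 2 and 4 h, and 136 of the 1968 had all 3 TCDD arrays above all 3 vehicle arrays at 12 h. The 80 with the largest 12 h differences are the members. Every difference between TCDD and vehicle given below for a member was therefore used in the choice and is a description, not a test.

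Larvae of the AB strain were placed at 96 h post fertilization (hpf) for 1 h in water that held 1 ng/ml TCDD, or 0.1% dimethyl sulfoxide (DMSO) as vehicle, and were then rinsed. Jaws, meaning heads cut off in front of the pectoral fin and cleared of eyes and brain, were collected at 97, 98, 100 and 108 hpf, which is 1, 2, 4 and 12 h after exposure began. Each Affymetrix Zebrafish GeneChip array held RNA of 10 pooled jaws, with 3 arrays for each of the 8 groups, from 3 separate experiments. A probe set is a group of short probes against 1 transcript, and its level is given as log2 of the deposited intensity. In a dissected tissue, fewer cells of a type and less RNA per cell cannot be told apart.

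TCDD acts mainly through the aryl hydrocarbon receptor (AHR), a ligand-activated transcription factor that enters the nucleus, pairs with ARNT and binds DNA at response elements near genes of xenobiotic metabolism. In mammals the receptor's targets include cytochrome P450 enzymes of family CYP1 and the quinone reductase NQO1. NQO1 and the enzymes of glutathione synthesis are also targets of NRF2, a transcription factor that responds to oxidative and electrophilic stress. In fish larvae, TCDD is known for malformation of the jaw cartilages and of the heart.

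The tissue carried cartilage transcripts: at 12 h in vehicle, col2a1a (the main collagen of cartilage) lay at 12.68 ± 0.35 and matn1 (the cartilage matrix protein matrilin 1) at 12.05 ± 0.47 (log2 intensity, SD, n = 3). Of the 28 probe sets of the cartilage marker list, 19 were past the level filter. The 12 h arrays also carried markers of skin (summed intensity 40500 to 46500 in vehicle and 36000 to 47600 with TCDD, 26 probe sets) and of skeletal muscle (22300 to 25300 against 13800 to 21400, 27 probe sets). Eye markers summed to 1050 to 2000 in vehicle and 459 to 1030 with TCDD (20 probe sets), and blood markers to 1430 to 1840 against 1700 to 3680 (9 probe sets). The eye sum was mostly 1 probe set, that of gnb1b, with a mean log2 intensity of 10.11 in vehicle and 8.97 with TCDD. The next brightest by mean, rbp4l, lay at 5.37 and 5.25, and 9 of the 20 were past the level filter. Vehicle arrays were uneven in some eye probe sets, as in opn1sw1 (4.50, SD 2.42). Muscle and eye sums were thus lower on all 3 TCDD arrays. Of these, replicate 3, described below, had the lowest eye sum (459) and the highest sums of blood (3680), skin (47600) and muscle (21400) markers. Single muscle probe sets went both ways, from -0.77 for acta1a to 1.1 for pvalb1 (log2 difference at 12 h). Their median difference was -0.17, and none (0 of 27) had a limma adjusted p under 0.05, so the sum does not stand for every muscle marker. No member belongs to any of the 12 lists of cell type markers. The part of tissue makeup in the members' differences was not tested.

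1 array stood apart from its group in its control signals. The dap control is a bacterial transcript measured by separate probe sets at its 5′ and 3′ ends, and a 5′ signal well below the 3′ signal marks incomplete copies. At 12 h the 5′ minus 3′ signal was -3.73, -3.53 and -3.80 in vehicle, -2.83 and -3.84 in TCDD replicates 1 and 2, and -0.51 in TCDD replicate 3 (log2). GAPDH, an endogenous transcript measured the same way, gave -0.97 in that array and -3.85 to -3.11 in the other 5. The count of calls, the members' median and most differences of named members are therefore also given without TCDD replicate 3.

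At 12 h the 80 members were higher with TCDD by a median of 0.53 on the log2 scale (1.44-fold), from 0.36 (1.28-fold) for the last to 2.0 (4.0-fold) for the first, against a median of -0.01 over the 8781 probe sets. Most of these differences are small: 77 were under 1, and the median standard error was 0.18. The members at ranks 78 to 80 were raraa, cdc42 and cdipt, each at 0.36, and those just outside were nrarpa at 0.36 and ufd1l and ier3ip1 at 0.35. On the early limit, the members nearest to it were si:ch211-127l15.5, whose largest early difference was 0.199, and bin3 and a probe set annotated to several genes, each at 0.192. Just past it lay aifm2 (0.201), rnf181 (0.203) and snrpe (0.204), whose 12 h differences of 0.76, 0.97 and 0.62 would have placed them among the members.

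**Figure D1:**
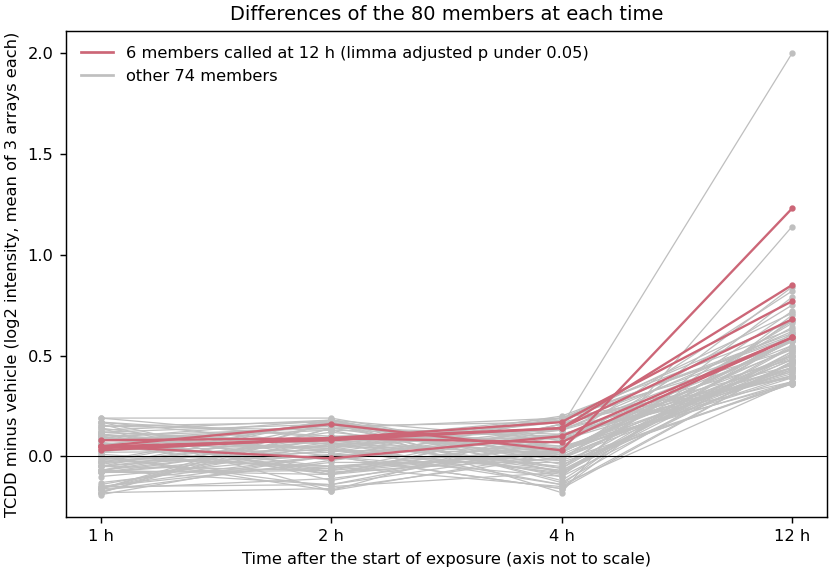
Difference between TCDD and vehicle (log2 intensity, mean of 3 arrays each) at 1, 2, 4 and 12 h for each of the 80 members, 1 line per member, with the 6 members called by limma at 12 h in red. All lines stay within 0.2 of zero up to 4 h, as the choice required, and end between 0.36 and 2.0 at 12 h.

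In the limma fit of all 24 arrays, 6 of the 80 members passed at 12 h (Benjamini-Hochberg adjusted p under 0.05 over 15502 probe sets), where 0.387% of all probe sets were called higher and 0.755% in either direction. The choice used this contrast, so nothing is read from that share. The 6 are nansa, gclm, lgals3a, ociad1, slc37a2 and mzt2b, out of 60 probe sets called higher at 12 h. An unadjusted p under 0.05 was found for 69 members, those 6 included. The share of all probe sets is not given for this measure and the choice used the same contrast, so nothing is read from this count either. Groups that do not overlap, which the rule required of every member, occurred in 7.98% of the 8781 probe sets with TCDD above. The count of members called changed with single arrays: it was 2 without TCDD replicate 3, 12 without TCDD replicate 2 and 3 without vehicle replicate 1. Calls over all 15502 probe sets, 117 with all arrays, were 66, 119 and 62 in these settings, so the members' count is read only beside them. The 2 members still called without TCDD replicate 3 were nansa and gclm, and the same 2 were left when the dap signal was added to the fit as a covariate.

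3 members were grouped under glutathione and quinone chemistry after the values were seen, and for gclm and nqo1 the 3 TCDD arrays lay close together. The gene gclm encodes the modifier subunit of glutamate-cysteine ligase, the rate-limiting enzyme of glutathione synthesis. At 12 h it lay at 3.97, 4.05 and 4.12 in vehicle and at 4.88, 4.99 and 4.80 with TCDD (log2 intensity). Within each group the 3 arrays lay within 0.2 of each other, and the groups were 0.85 apart (SE 0.14, 1.80-fold), or 0.89 without TCDD replicate 3. Its differences at 1, 2 and 4 h were 0.05, 0.08 and 0.14. The level of gclm was low, 1.32 above the brightest of 3 probe sets for fluorescent reporters, which serve as a guide to background because the AB strain carries no such gene. With 16 added to each intensity the difference was 0.49 and no longer passed (limma adjusted p = 0.0694).

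The quinone reductase gene nqo1 was among the brighter members. It lay at 10.61, 10.23 and 9.94 in vehicle and at 10.93, 10.97 and 10.80 with TCDD. The vehicle arrays were more spread than the TCDD arrays (SD 0.34), so that the smallest gap between the groups was between vehicle replicate 1 and TCDD replicate 3. The difference was 0.64 (SE 0.19, 1.56-fold), or 0.69 without TCDD replicate 3, and it did not pass the adjustment. At 1, 2 and 4 h it was -0.16, 0.17 and 0.02. Cystathionine beta-synthase, encoded by cbsb, feeds cysteine into glutathione synthesis. It was close to the reporter probe sets in vehicle (2.93 against 2.72), and its difference of 0.50 was 0.24 without TCDD replicate 3.

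The fixed lists set these values in context. Of 18 probe sets for genes of the NRF2 and phase II list, 2 were called higher at 12 h and none lower (0 of 18), with a median difference of 0.21. The calls were gclm and the glutathione S-transferase gstp1.2, which was higher by 0.83 (SE 0.15, limma adjusted p = 0.00783), or by 0.66 without TCDD replicate 3 (limma adjusted p = 0.0488). The catalytic subunit of glutamate-cysteine ligase, gclc, had a 12 h difference of -0.10 (SE 0.14), and glutathione reductase, gsr, one of 0.63 (SE 0.18), or 0.65 without that array, neither of which passed. Of the 7 probe sets of the AHR target list, 3 were called higher at 12 h and nqo1 was the only member. The 3 were those of cyp1a and tiparp and a single one for cyp1c1. Other cyp1c1 probe sets, with 12 h differences of 3.08 (SD 2.88 with TCDD, n = 3) and 0.48, were not called. Each of the 3 called already differed by at least 1.55 at every earlier time. For nqo1, as a member, the rule itself required a difference under 0.2 at those times. This contrast in timing was therefore fixed by the choice.

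**Figure D2:**
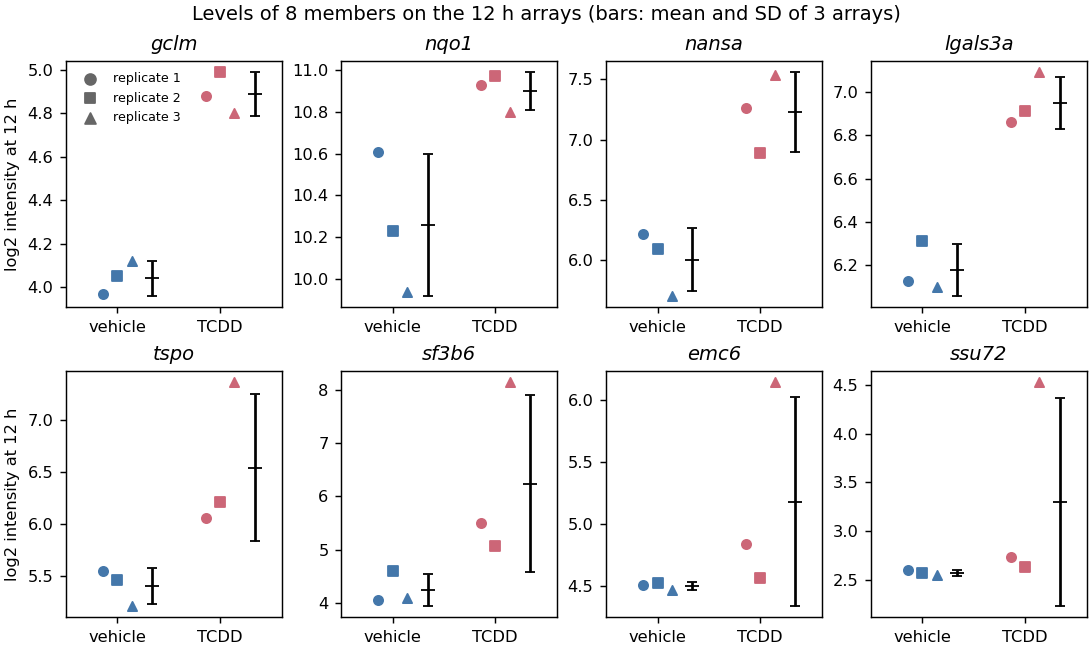
Levels (log2 intensity) of 8 members on the 12 h arrays, vehicle in blue and TCDD in red, with a symbol for each replicate number and bars for mean and SD of 3 arrays. The TCDD arrays lie close together for gclm, nqo1 and lgals3a, while in tspo, sf3b6, emc6 and ssu72 replicate 3 (triangle) lies well above the other TCDD arrays.

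Genes of sugar, lipid and secretory metabolism made up 11 members, with 12 h differences of 0.36 to 1.23. These and the following role groups were formed after the values were seen and are used only to order the description. The largest of them belonged to nansa, which encodes the synthase of N-acetylneuraminic acid, the common sialic acid of glycoproteins. It lay at 6.21, 6.09 and 5.70 in vehicle and at 7.26, 6.89 and 7.54 with TCDD. The groups lay well apart, and the difference of 1.23 (SE 0.19, 2.34-fold) was 1.07 without TCDD replicate 3, the largest of all members on those arrays. At 1, 2 and 4 h it was 0.05, 0.16 and 0.03.

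The phospholipid remodelling enzyme lpcat3 was even within groups. It lay at 5.62, 5.61 and 5.69 in vehicle and at 6.19, 6.21 and 6.34 with TCDD, a difference of 0.61 (SE 0.17) that was 0.56 without TCDD replicate 3. For alg5 (0.71, or 0.48 without TCDD replicate 3; it makes the glucose donor of N-glycosylation), tmed10 (0.59, or 0.43; a cargo receptor between endoplasmic reticulum and Golgi) and emc6 (a subunit of the membrane insertion complex of the endoplasmic reticulum), TCDD replicate 3 was the highest array. The difference of emc6 was 0.68, from 4.51, 4.52 and 4.47 in vehicle to 4.84, 4.56 and 6.14 with TCDD, and 0.20 without that array. The same array was the highest TCDD array in 10 of the 11, and for 2 of them the difference without it was under 0.5 of its full size. The proteoglycan kinase gene fam20b, which acts on the sugar chains of cartilage proteoglycans in zebrafish, had a difference of 0.44 (SE 0.15), or 0.31 without TCDD replicate 3, at a low level, 3.53 ± 0.16 in vehicle (SD, n = 3).

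The mitochondrial group held 8 members, with 12 h differences of 0.37 to 1.14. The outer membrane translocator protein tspo lay at 5.54, 5.46 and 5.21 in vehicle and at 6.05, 6.21 and 7.36 with TCDD. Its difference of 1.14 (SE 0.28) was 0.73 without TCDD replicate 3. The respiratory subunit cox6c was even within groups, at 8.65, 8.73 and 8.87 in vehicle and 9.35, 9.29 and 9.36 with TCDD, a difference of 0.58 (SE 0.16) that was 0.57 without that array. In the other mitochondrial members, among them atp5md (a small subunit of ATP synthase, 0.84, or 0.49 without TCDD replicate 3), nipsnap2 (0.70, or 0.35), ndufa4b (0.52, or 0.17) and cycsb (cytochrome c, 0.37, or 0.23), the difference was mostly smaller without it. Of the 17 probe sets on the fixed list for mitochondrial respiration, cox7a2a (0.69, SE 0.16, limma adjusted p = 0.0456) was called higher and none (0 of 17) lower, and the median difference was 0.08. Without TCDD replicate 3 the difference of cox7a2a was 0.54 and did not pass (limma adjusted p = 0.237). On this list the summed intensity was 5270 to 6110 in vehicle, and with TCDD it reached from 4780 to 8900, the highest being replicate 3.

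10 members were assigned to transcription, RNA processing or translation. The first of all members, sf3b6, encodes a subunit of the spliceosome's SF3B complex. It lay at 4.04, 4.59 and 4.09 in vehicle and at 5.50, 5.07 and 8.15 with TCDD, so that replicate 3 lay far above the other TCDD arrays. Its difference of 2.0 (SE 0.56, 4.0-fold) was 1.04 without that array. The RNA polymerase II subunit polr2j had a difference of 0.79, or 0.38 without TCDD replicate 3, and the initiation factor eif1axb one of 0.67, or 0.37. For ssu72, a phosphatase of the polymerase's tail, the mean vehicle level of 2.57 was below that of the brightest reporter probe set (2.72). Its TCDD arrays lay at 2.73, 2.63 and 4.53, and the difference of 0.72 was 0.10 without the last of these. By contrast casc3, of the exon junction complex, lay at 6.63, 6.51 and 6.50 with TCDD and at 5.65, 6.21 and 6.07 in vehicle, 0.57 apart (SE 0.13), or 0.59 without TCDD replicate 3.

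10 members were assigned to signalling or gene regulation. Galectin 3, a lectin that binds galactose-containing glycans, is encoded by lgals3a. It lay at 6.13, 6.31 and 6.10 in vehicle and at 6.86, 6.91 and 7.09 with TCDD, 0.77 apart (SE 0.17, 1.71-fold), or 0.71 without TCDD replicate 3, where it was not called (limma adjusted p = 0.16). The beta-catenin gene ctnnb2, whose protein serves in cell adhesion and Wnt signalling, had a difference of 0.48 (SE 0.13), or 0.47 without that array. The peptide hormone gene apln had a difference of 0.39 (SE 0.22), or 0.44 without it, with vehicle at 6.51, 6.63 and 6.81 and TCDD at 6.82, 7.37 and 6.95. The retinoic acid receptor gene raraa had a difference of 0.36, with vehicle at 3.53, 4.09 and 4.08 and TCDD at 4.56, 4.14 and 4.10, so that 4 of its 6 arrays lay within 0.1 of each other. The transcription factor sox3 lay at 4.92, 4.97 and 5.93 with TCDD, and its difference of 0.62 was 0.29 without replicate 3.

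Among the remaining named members, ociad1 (0.68, SE 0.15), the sugar phosphate transporter slc37a2 (0.59, SE 0.13) and mzt2b (0.59, SE 0.14), a partner of the gamma-tubulin complex, were called, and without TCDD replicate 3 their differences were 0.53, 0.43 and 0.45. None of these 3 was called without that array (limma adjusted p = 0.185, 0.211 and 0.257). The ubiquitin ligase subunit gid8a, at 4.97, 5.0 and 4.95 in vehicle and 5.47, 5.63 and 5.63 with TCDD, had a difference of 0.61 (SE 0.14), or 0.58 without TCDD replicate 3. The BAR domain protein bin3 had 0.67, or 0.63 without TCDD replicate 3. For s100z, a calcium-binding protein, the vehicle arrays lay at 5.38, 4.72 and 5.28 and the TCDD arrays at 5.39, 5.44 and 7.01. The groups nearly touched, and the difference of 0.82 was 0.29 without replicate 3. The differences of si:ch211-127l15.5 and wu:fi26d02, whose roles are not given here, were 0.63 and 0.60, or 0.66 and 0.59 without that array.

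Over all 80 members, TCDD replicate 3 was the highest of the 3 TCDD arrays at 12 h in 56, replicate 1 in 11 and replicate 2 in 13. Among the 8781 probe sets, replicate 3 was the highest in 37.2%. The rule ranked probe sets by their mean 12 h difference, which 1 very high TCDD array raises, so nothing is read from the distance between these shares. It exceeded the next array by more than 0.5 in 23 members, 6 of them among the first 10. Without that array the median difference fell from 0.53 to 0.43, and the range was 0.10 to 1.07. In 14 members the value was then under 0.5 of its full size, among them ssu72, emc6 and s100z, and in 20 it was larger than before, among them gclm, nqo1 and casc3. The members thus include some that all 3 TCDD arrays carry evenly and others that 1 array carries.

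**Figure D3:**
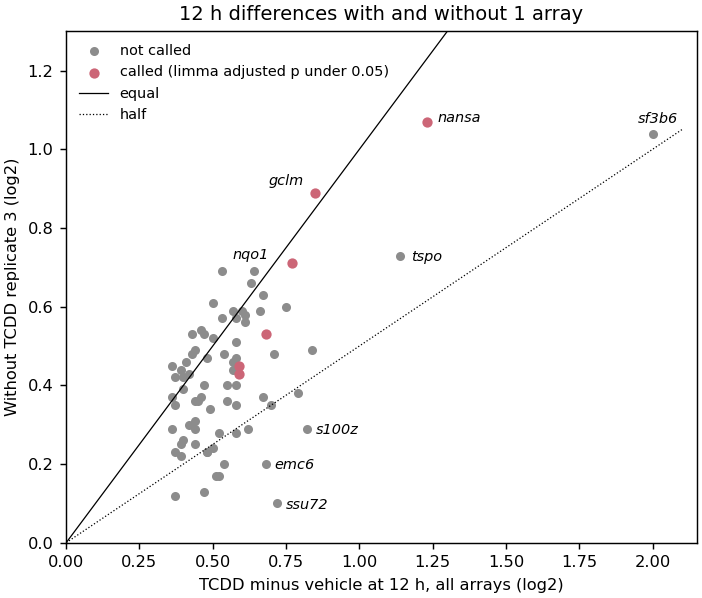
Difference between TCDD and vehicle at 12 h (log2) of each of the 80 members with all arrays (x axis) and without TCDD replicate 3 (y axis). Points on the solid line are equal, as gclm and nqo1 nearly are, and the 14 points under the dotted line, such as ssu72, have under 0.5 of their difference left.

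At 1 h another array stood apart in its dap signal, and the members' level was lower on it. TCDD replicate 2 had a value of -2.92, against 0.16 and -0.07 in replicates 1 and 3. On that array 60 of the 80 members lay below the mean of the other TCDD 1 h arrays, with a median of -0.20, while the 8781 probe sets had a median of 0.05 and 54.8% of them lay above. In sf3b6 the TCDD 1 h arrays lay at 7.92, 5.9 and 7.66, against a vehicle mean of 7.16. Its 1 h difference of 0.0 (SE 0.56) thus rested on replicate 2. The same arrays lay at 7.28, 6.02 and 7.14 against 6.73 in emc6 (difference 0.09, SE 0.33). In gclm they were more even, at 6.18, 6.15 and 5.9 against 6.02 (SE 0.14). For members like sf3b6 and emc6, a small difference of means does not show that the level was unchanged at 1 h. At 12 h TCDD replicate 3, of high dap signal, lay above the mean of the other TCDD arrays in 60 of 80 members (median 0.37, against -0.03 over the 8781). Of the 8781, 46.9% lay above. The ranking by the mean 12 h difference, which includes this array, raises the members' count. At 4 h dap signals differed less. Vehicle replicate 2 had the lowest of that time (-1.35) and vehicle replicate 1 the highest (-0.24), and the members' median was -0.01 on each, relative to the other vehicle arrays. The 8781 had -0.03 and 0.07 there. Of the TCDD 4 h arrays, replicate 3 had the lowest dap signal (-1.32), with a median of -0.07 for the members and 0.09 for the 8781. TCDD replicates 1 and 2 (-0.79 and -0.64) had members' medians of 0.09 and -0.04, against -0.03 and -0.07. The 1 h and 12 h arrays are different RNA samples, but deviations of 3 arrays within a group are tied to each other. The rule also limited the group difference at 1 h and ranked probe sets by that at 12 h. In the fit with the dap signal as a covariate, the members' median 12 h difference was 0.40. The change was uneven among named members. The difference of ssu72 went from 0.72 to 0.08 and that of emc6 from 0.68 to 0.12. By contrast that of gclm went from 0.85 to 0.92 and that of bin3 from 0.67 to 0.74. Whether incomplete copies account for any of the members' 12 h differences was not tested.

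**Figure D4:**
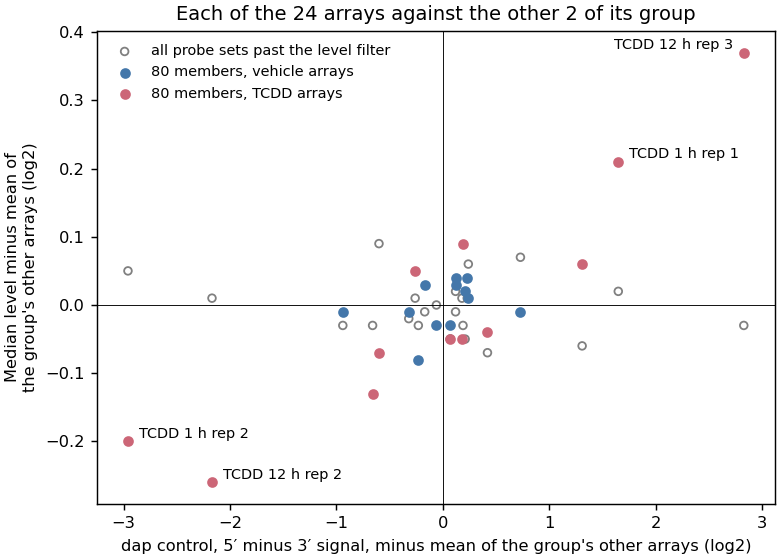
Each of the 24 arrays compared with the other arrays of its group: dap 5′ minus 3′ signal (x axis, log2) against the median level (y axis, log2) of the 80 members (filled points) and of the 8781 probe sets past the level filter (open circles). TCDD 12 h replicate 3 has the highest values on both axes for the members (0.37 on the y axis), TCDD 1 h replicate 2 has the lowest dap value with members at -0.20, and the open circles stay within 0.1 of zero.

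To see the 12 h difference in arrays that had no part in the choice, the same rule was applied to the arrays of 2 replicate numbers, and the 80 probe sets it gave were read in the third. With replicate 1 left out of the choice, TCDD lay above vehicle in replicate 1 for 57 of 80 (71.2%), against 45.8% of all probe sets past the level filter. The median difference there was 0.21, where it was 0.52 in the arrays used for the choice. Replicate 2 gave 49 of 80 (61.3%) against 51.0%, with a median of 0.10 after 0.70 in the choice. Replicate 3 gave 45 of 80 (56.2%) against 47.3%, with a median of 0.11 after 0.38. On this scale the share lay above that of all probe sets in each case, and the median was under 0.5 of that in the arrays used. After quantile normalization of all arrays the shares were 70.0% against 52.0%, 61.3% against 50.4% and 51.2% against 47.6%. The medians on that scale were 0.26, 0.05 and 0.02, so that little of the difference was left in replicates 2 and 3. The lists chosen in this way shared 28, 22 and 20 probe sets with the 80 members. Each reading is the difference of 1 TCDD and 1 vehicle array, and the 80 probe sets read on them are not replicates. The dap 5′ minus 3′ signals, vehicle then TCDD, were -3.73 and -2.83 in replicate 1, -3.53 and -3.84 in replicate 2, and -3.80 and -0.51 in replicate 3. Whether such differences between arrays enter these shares was not tested.

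**Figure D5:**
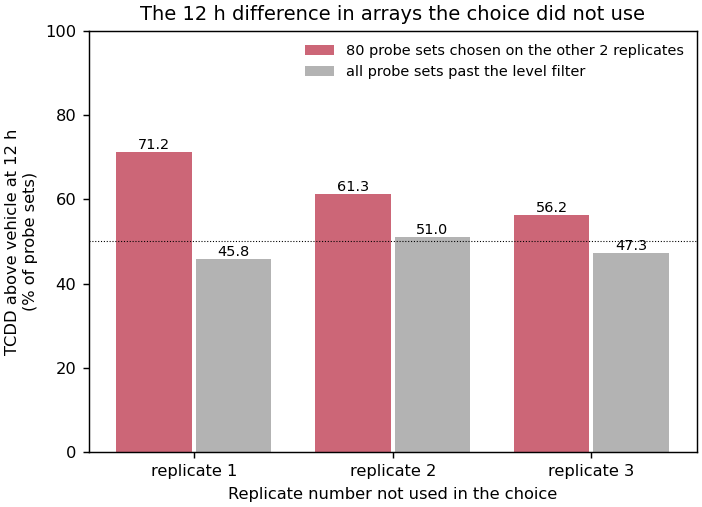
Share of probe sets (%) with TCDD above vehicle at 12 h in each replicate number, for the 80 chosen on the arrays of the other replicate numbers (red) and for all probe sets past the level filter (grey). The red bars are at 71.2, 61.3 and 56.2% and the grey bars at 45.8, 51.0 and 47.3%.

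The members were also described by their level over both treatments together. The rule used the same arrays and a limit on the mean level, so this is not independent of the choice and is given as a description. The deposited array medians differ between times and no source used here says whether each time was normalized separately, so levels at 12 h and 4 h depend on the scaling. After quantile normalization of all arrays together, 39 of the 80 members were lower at 12 h than at 4 h and 12 were higher (limma adjusted p under 0.05). Of all 15502 probe sets, 29.6% were lower and 43.1% higher. Among the 8781 past the level filter, the set the members came from, 34.8% were lower and 32.4% higher. The members' median change was -0.26, against -0.02 over the 8781. On the deposited scale, with each array centred on its median, 58 members were lower and 5 higher. Among the 8781 on that scale, 45.6% were lower and 22.1% higher. Age and the set of arrays cannot be told apart here, and 5 of the 6 arrays of 12 h had a dap 5′ minus 3′ signal between -3.84 and -2.83, while at earlier times only TCDD 1 h replicate 2 was that low.

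Seen by treatment on the quantile scale, the vehicle level of the members was lower at 12 h than at 4 h by a median of 0.49 (median change -0.49, above zero in 13 of 80), and the TCDD level differed by -0.03 (above zero in 39 of 80). Over the 8781 probe sets these medians were 0.00 and -0.04. For gclm the vehicle level changed by -1.61 and the TCDD level by -0.71 from 4 to 12 h. For nqo1 both were higher at 12 h, by 0.74 in vehicle and 1.26 with TCDD, and for nansa the changes were -0.89 and 0.31. Without TCDD replicate 3 the members' median with TCDD was -0.06, above zero in 33 of 80. On the deposited scale centred on array medians, the members' medians were -0.70 in vehicle, -0.25 with TCDD and -0.38 with TCDD without replicate 3, where the 8781 probe sets had -0.23, -0.24 and -0.26. The size of these changes thus depended on the scaling. The gap between the treatments at 12 h was fixed by the choice, so only the values are given.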

How the data were processed

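The deposited table holds probe set intensities on a linear scale made by the authors; RMA and GCRMA, which summarise probes, are named in the submitters' processing notes without role, order or version. Array medians differ between times, and whether each time was normalized separately is not given in the sources used here, so TCDD and vehicle were compared within a time. Values were taken to log2 with no offset. R 4.3.3 with limma 3.58.1 (lmFit, contrasts.fit, eBayes) fitted 8 group means over 24 arrays and 15502 probe sets. Benjamini-Hochberg adjustment was used with a threshold of 0.05. The fit was also run on simulated arrays with independent noise and no outlying array. That run therefore does not cover an array that differs in quality from its group. Gene names came from the platform's annotation, updated through gene identifiers: 64 of the 80 members have 1 symbol, 1 has several and 15 have none, against 10795, 135 and 4572 of the 15502. Named members were the first 25 with 1 symbol, those in 24 fixed gene lists, those at the edges of the rule and, chosen after their values were seen, others used as examples of a role. Members and lists were chosen with earlier results of these data known. The p-values measure the spread between pooled samples. Precision is limited by 3 arrays per group; no detection calls, scanner files, sequences or genome positions were used here.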

Additional observations from a re-analysis of the deposited data

How the results depend on the processing

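The median 12 h difference of the members, 0.53, ranged from 0.40 to 0.61 over the 15 alternatives to the fit, of which the replicate block, the 12 h arrays alone and the trend and robust settings leave a difference of means unchanged by construction. The number of members called, 6 with all arrays, was 13 after quantile normalization of all arrays, 1 with an offset of 16, 1 on the 6 arrays of 12 h alone, 3 with trend and robust settings and 2 with the dap covariate. Calls over all probe sets, 117 with all arrays, were 149, 65, 19, 108 and 104 in the same order. Leaving out 1 array or 1 replicate number gave 0 to 12 members called, and 25 to 119 calls over all probe sets. The members' count was 0 without replicate 1 and without replicate 3 in limma, where 29 and 25 of all probe sets were called. In these fits 43 and 38 members had an unadjusted p under 0.05, with no share of all probe sets to read this against. With the replicate number as a block 7 members and 123 of all probe sets were called. Among these members were nqo1 and casc3, while ociad1 and mzt2b were not called. Deviations of same-numbered vehicle and TCDD arrays correlated between -0.46 and 0.25. With 3 arrays per group this cannot settle whether arrays of 1 number share an experiment. Of the 80 members, 47 were kept on the quantile scale, 35 and 34 with an early limit of 0.15 or 0.3 (the effect of these limits on membership was added after seeing the data, as were the list calls without TCDD replicate 3 and the changes from 4 to 12 h by treatment under other settings), and 20 to 65 when arrays were left out. The probe sets that met the rule, 136, became 67 and 290 with these limits and 214 with an offset of 16. Members higher at 12 h than at 4 h over both treatments, 12, were 5 on the deposited scale centred on array medians, where 22.1% of the 8781 probe sets were higher. Without a replicate number they were 7 to 10, with no share of all probe sets to read this against. The rule fixes the direction of the members in nearly all of these alternatives, so their direction is no sign of stability. Of the 15 alternatives, 3 ended the call of nansa, 4 that of gclm, 11 that of slc37a2, 12 those of lgals3a and ociad1 and 13 that of mzt2b; the causes were not tested. For 8 members the vehicle level lay within 1 of the brightest reporter probe set or below it, which limits what their differences show.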

Other observations

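Among the 15 members without a gene name, the brightest lay at 12.38, 12.45 and 12.60 in vehicle and at 12.82, 12.98 and 12.83 with TCDD at 12 h, a difference of 0.40 that was 0.22 after quantile normalization of all arrays. Another was even within groups, at 6.27, 6.36 and 6.33 in vehicle and 6.72, 6.70 and 6.73 with TCDD. Both were chosen after their values were seen, and neither was called.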
